A study of Homo sapiens with 16 samples.

Results

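Homeobox genes encode transcription factors that assign position and cell type during development. The 33 genes described here were taken by symbol from the 9944 gene bodies whose newly made RNA was deposited for HAP1 cells: symbols that begin with HOXA, HOXB, HOXC, HOXD, NKX or LHX, or that read PAXn, SIXn, DLXn, IRXn, OTXn, MSXn, EMXn or TLXn with n a digit, antisense genes left out. NKX gave 6 genes, PAX 5, DLX and LHX 4 each, HOXC 3, the SIXn symbols 3, HOXD, OTX and MSX 2 each, and HOXB and IRX 1 each, while no HOXA, EMX or TLX symbol was among the gene bodies. The rule uses symbols alone, and the genes were chosen with earlier results of these data known. By textbook knowledge all but PAX1 encode a homeodomain, which is only partial in PAX2, so the name holds for the group with those exceptions.

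HAP1 cells are human, nearly haploid and descend from the leukaemia line KBM-7. Their new RNA was captured by TT-chem-seq: cells took up 4-thiouridine (4-SU, 1 mM for 30 min), RNA with 4-SU was tagged with biotin and purified, and yeast RNA served as a spike-in. There were 8 groups with 2 libraries each, 16 in all. One group had neither 4-SU nor an inhibitor, and the group called untreated had 4-SU alone. The other 6 groups received 4-SU and an inhibitor for 1 h or 5 h: BMH-21 at 1 µM, which acts on RNA polymerase I, DRB at 100 µM, a kinase inhibitor that stops elongation by RNA polymerase II, or ML-60218 at 20 µM, an inhibitor of RNA polymerase III. The 2 libraries of a group are labelled as biological repeats, but separate cultures are not mentioned, so every p-value reflects only how far these libraries differ, which may be technical.

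Library totals ran from 14083584 to 93919776.5 tags, and the share that fell in the gene bodies from 0.264% without 4-SU to 6.45% after 1 h of BMH-21. DRB left the fewest tags to test, with 0.346% and 0.397% of tags in gene bodies after 5 h. Of 12 blood lineage markers, CD33 and CD3E had 0 tags in untreated cells, while ITGA2B had 67 and 157.5 and KIT 56 and 69. The whole list summed to between 35.5 and 46.1 tags per 10000000. Of 6 fibroblast markers LUM was at 0 and COL1A1 was highest with 28 and 62.5 tags, and that list summed to between 10.2 and 12.55. In these bulk samples fewer cells that make an RNA and less RNA per cell cannot be told apart.

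Many homeobox genes lie in ancestral clusters or pairs, are short, and are held silent by Polycomb complexes outside the tissues that use them. HOX genes give position along the body axis, OTX genes pattern the anterior brain, and OTX2 is also active in pluripotent epiblast cells. NKX, LHX, PAX, DLX, IRX, MSX and the SIXn factors act later, in organs such as pancreas, pituitary, eye, kidney, jaw and limb. Homeodomains bind short DNA sites with the core TAAT, so members can in principle act on each other's genes.

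The gene bodies of the 33 genes were short, with a median of 5.44 kb and a range from 3.05 kb (HOXD13) to 117 kb (PAX7), against a median of 17.1 kb over the 9944. Under 10 kb lay 25 of the 33, or 75.8%, compared with 33.5% of all gene bodies. RefSeq (GRCh38.p14) gave the promoter of 22 of the genes, taken as 250 bases before to 50 after the annotated start. The core TAAT, read on both strands as TAAT or ATTA, stood in 12 of the 22, or 54.5%, and in 50.2% of the 35116 RefSeq promoters of that length. The TATA box TATAAA, also read on both strands, stood in 1 of the 22 (HOXD13) and in 11.5% of all. The 22 promoters held a median of 24 CG dinucleotides, where the 35116 promoters had a median of 14 and the 5007 promoters of genes in the same deposited table a median of 18.

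The promoters of 3 genes that the results turn on are shown, with each match to the core or to the TATA box, on either strand, in capitals. OTX2 had the highest level, and its promoter (chr14:56810430-56810729, minus strand) held 4 cores and 9 CG dinucleotides. NKX6-1, among the members that fell most after 1 h of BMH-21, had 1 core and 24 CG dinucleotides (chr4:84499243-84499542, minus strand). HOXD13, the shortest gene body, had no core and a TATA box whose first base lies 27 bases before the start (chr2:176092471-176092770, plus strand). A match is a description of these letters and not a site.
OTX2: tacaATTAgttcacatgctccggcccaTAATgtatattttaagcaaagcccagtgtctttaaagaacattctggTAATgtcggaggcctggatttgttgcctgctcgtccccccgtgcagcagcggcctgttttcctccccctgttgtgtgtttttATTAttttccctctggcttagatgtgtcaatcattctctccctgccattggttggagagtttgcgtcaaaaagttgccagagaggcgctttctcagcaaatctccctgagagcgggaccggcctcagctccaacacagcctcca
NKX6-1: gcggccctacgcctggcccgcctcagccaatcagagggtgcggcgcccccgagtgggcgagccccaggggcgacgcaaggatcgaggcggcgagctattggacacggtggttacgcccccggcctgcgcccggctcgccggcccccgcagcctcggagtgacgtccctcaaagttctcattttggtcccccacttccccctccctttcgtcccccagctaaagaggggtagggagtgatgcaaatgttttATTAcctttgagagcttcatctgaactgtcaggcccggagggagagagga
HOXD13: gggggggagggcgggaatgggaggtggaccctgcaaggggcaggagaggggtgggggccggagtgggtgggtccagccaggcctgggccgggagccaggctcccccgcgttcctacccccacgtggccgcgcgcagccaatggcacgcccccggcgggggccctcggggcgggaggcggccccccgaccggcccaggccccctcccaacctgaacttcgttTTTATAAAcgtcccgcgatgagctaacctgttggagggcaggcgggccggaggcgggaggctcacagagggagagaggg

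OTX2 was the most strongly transcribed member of the group in untreated HAP1 cells per unit of length, with IRX3, HOXD13 and OTX1 next by their means, and PAX1, NKX6-3 and NKX1-1 had no tag at all there. Levels are given as deposited tags per 10000000 per kb of gene body. OTX2 (chr14:56801734-56810448 on hg38, as the deposited table gives it) stood at 21.7 and 21.8, above 99.3% of the 9944 gene bodies. IRX3, a factor of neural and heart patterning (chr16:54283303-54286763), stood at 12.4 and 17.5. HOXD13, the last gene of the HOXD cluster and a regulator of digit formation (chr2:176092890-176095938), stood at 13.02 and 13.2. OTX1 stood at 11.5 and 12.9. The range of IRX3 overlapped those of HOXD13 and OTX1, so its place among them is not settled, while all 3 lay below OTX2.

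The other families followed with 1 leading gene each. NKX6-1, a factor of motor neuron progenitors and pancreatic beta cells (chr4:84491986-84498450), had a mean of 10.6 ± 0.421 (SD, n = 2 here and for all SD below). MSX1, which shapes face and teeth (chr4:4859665-4863936), had 9.75 ± 0.644. DLX1, a factor of forebrain interneurons (chr2:172085225-172089677), had 9.60 ± 1.94, and HOXC8, a thoracic HOX gene (chr12:54009105-54012362), had 9.34 ± 2.20. These means lie within their spread of each other. SIX4 (chr14:60709527-60724134) followed with 4.01 ± 0.242, HOXB9 (chr17:48621158-48626356) with 2.48 ± 0.880 and LHX9, a gonad and limb factor (chr1:197912504-197935478), with 1.21 ± 0.0702. PAX6, the master factor of the eye (chr11:31788909-31817961), had the lowest of the leading levels at 0.644 ± 0.134.

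Members of a family differed widely. OTX1 had 12.2 ± 1.02 where OTX2 had 21.8 ± 0.111, and the HOXD cluster held HOXD13 at 13.1 ± 0.146 beside HOXD11 at 0.352 ± 0.166. The deposited HOXD11 region (chr2:176104215-176109754) begins before the RefSeq start at 176107280 and stops short of the RefSeq end. Its level thus covers sequence outside the annotated gene. HOXC8 at 9.34 contrasted with HOXC11 at 0.439 ± 0.0767 and HOXC12 at 0.0667 ± 0.0189. NKX2-3, a factor of spleen and gut mesenchyme (chr10:99532932-99536524), had 5.53 ± 1.54 and NKX2-5, the cardiac factor, 0.160 ± 0.131. PAX7, a factor of muscle stem cells, had 0.00733 ± 0.00145 over its long gene body, from 4.5 and 5 tags.

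**Figure D1:**
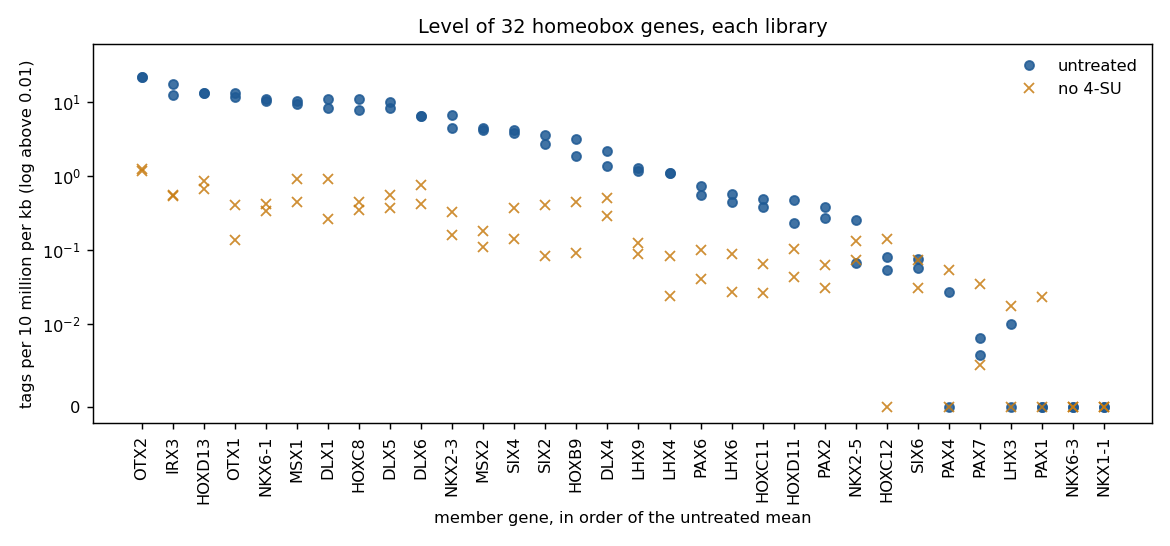
Tags per 10000000 per kb (logarithmic above 0.01) of 32 of the 33 genes in each of the 2 untreated and 2 no 4-SU libraries, ordered by the untreated mean. OTX2 stands highest at 21.7 and 21.8, and PAX1, NKX6-3 and NKX1-1 are at 0 in both untreated libraries.

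Of the 33 genes, 25 passed the filter on low tags and were tested. The other 8 were HOXC12, SIX6, NKX2-5, PAX1, LHX3, PAX4, NKX6-3 and NKX1-1. NKX2-5 reached 25.5 tags in the deepest library and 74.5 over all 16, HOXC12 23 over all 16, SIX6 17 and LHX3 12.5. PAX1 and PAX4 summed to 3 tags each, NKX6-3 and NKX1-1 to 2 each. These 8 were not tested. The tested genes include some that passed through groups where they were high. HOXC11 and HOXD11 passed through BMH-21 or ML-60218 libraries and not through untreated ones, so their rises under these inhibitors are not independent of the filter. Tags were counted without regard to strand, so those of 7 members that overlap another RefSeq gene cannot be separated from its tags. Among these were LHX4 (with ACBD6 and LHX4-AS1), DLX6 (inside DLX6-AS1), PAX6 (ELP4 and PAX6-AS1), HOXC11 (HOTAIR), HOXC12 and SIX6 (inside C14orf39).

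The comparison with cells given no 4-SU asks how much of each gene's signal is labelled RNA. Against the yeast spike-in, the 21 members with at least 50 untreated tags on average stood without 4-SU at between 0.317% (OTX1) and 2.85% (DLX4) of their untreated level, with a median of 0.835%. The median of the 3441 gene bodies with that many tags was 1.39%. OTX1 had 412 and 677 tags in the untreated libraries and 9 and 11 in those without 4-SU. The groups are far apart. On the spike-in scale limma called 24 of the 25 tested members higher in untreated cells, beside 84.5% of all genes tested and 95.3% of those under 10 kb.

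On the mRNA scale, where each library is divided by its own gene-body total, many members still stood higher in untreated cells. limma called 12 of 25 higher (19.5% of 5769 genes were called higher, and 31.9% of those under 10 kb) and 1 lower (21.9% of all genes). OTX1 led with a log2 difference of 2.7 ± 0.26 (SE, as for all log2 changes below; adjusted p = 2.95e-05), followed by MSX2, a skull and limb factor, with 1.89 ± 0.36 and NKX6-1 with 1.85 ± 0.41. The gene called lower was PAX7, at -2.95 ± 0.71 (adjusted p = 0.00551), with 5 and 14 tags without 4-SU and 4.5 and 5 in untreated cells. On the spike-in scale PAX7 had 0.75 and was not called (adjusted p = 0.187 by limma). PAX7 passed the filter, which weighs tags against library size, through the small no 4-SU and DRB 5 h libraries where it stood high. Its call is therefore not independent of the filter. The 12 also held IRX3, LHX4, HOXC8, NKX2-3, DLX5, DLX1, OTX2, SIX4 and HOXD13, whose differences ran from 1.17 to 1.78. Without replicate 2 of the no 4-SU group, or without untreated replicate 1, the total of 13 fell to 8.

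DRB for 1 h removed most of the newly made RNA of the group, and 2 long genes, LHX4 and PAX2, stood apart. On the spike-in scale the 21 well-covered members kept a median of 5.70% of their untreated level, where all gene bodies kept 24.2% and those under 10 kb 9.27%. limma called 23 of 25 lower on that scale, beside 67.7% of all genes tested. On the mRNA scale it called 17 lower and none higher, beside 28.6% of all 5532 genes called lower and 47.6% of those under 10 kb, and the members' median log2 change was -2.01 against -0.15 over all genes and -1.12 under 10 kb. edgeR (quasi-likelihood, on tags recovered from the deposited values, in steps of 0.5) called 21 lower (32.2% of all genes) and 2 higher (21.1% of all genes). Relative to the spike-in the median of all genes was -1.49, so changes on the mRNA scale are relative to a general fall.

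OTX1 fell furthest among the well-covered members. Its mRNA-scaled values were 76.4 and 77.5 in untreated cells and 8.64 and 7.50 after 1 h of DRB, a log2 change of -3.18 ± 0.20 (adjusted p = 1.7e-06 by limma). NKX6-1 went from 60.2 and 51.3 to 5.41 and 7.86 (-3.0 ± 0.37), and MSX1 from 33.9 and 33.6 to 5.41 and 3.41 (-2.83 ± 0.46). In each of these genes both treated libraries lay far below both untreated ones. SIX4 (-2.80 ± 0.29), DLX1 (-2.80 ± 0.31), HOXC8 (-2.73 ± 0.56), HOXD13 (-2.66 ± 0.24), DLX5 (-2.65 ± 0.34) and LHX9 (-2.48 ± 0.25) also passed, as did MSX2 (-2.39 ± 0.36), HOXB9 and NKX2-3 (-1.98 each).

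OTX2 fell less than its relative. It went from 162 and 147 to 44.9 and 88.4, a change of -1.28 ± 0.26 (adjusted p = 0.00238), and kept 8.74% and 21.02% of its level on the spike-in scale, where OTX1 kept 3.56% and 3.38%. The difference between these genes was not tested. IRX3 (-1.50 ± 0.36) and DLX6 (-1.50 ± 0.28), a jaw and limb factor, changed by similar amounts. Without 4-SU the corresponding background was 0.709% for OTX2 and 0.317% for OTX1, so both remained above it.

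LHX4, a factor of pituitary and motor neuron development with a gene body of 48.7 kb (chr1:180230285-180278982), held its level. It had 248 and 354 tags in untreated cells and 114.5 and 206.5 after 1 h of DRB, which is 84.7% and 121% of untreated on the spike-in scale. On the mRNA scale it went from 46.0 and 40.5 to 124 and 141, a log2 change of 1.60 ± 0.61 that limma did not call (adjusted p = 0.054) and edgeR did (adjusted p = 3.01e-07). Among the 1232 gene bodies of 30 to 100 kb with at least 50 untreated tags, whose median was 32.2%, 22 (1.79%) kept as much as LHX4. ACBD6 on the opposite strand covers 9330 bases of LHX4 (19.2%), and its part in the value was not tested.

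PAX2, the kidney and optic stalk factor (84.2 kb), was the other member that kept a large part of its level. PAX2 kept 40.6% and 59.8% of its untreated level, from 104 and 214 tags to 23 and 61.5, and on the mRNA scale its change was 0.56 ± 0.31 (adjusted p = 0.168 by limma and 0.0393 by edgeR). On the spike-in scale limma called it lower (-0.99 ± 0.39, adjusted p = 0.0319). Of the 1232 gene bodies of that length class 20.3% kept as much. The deposited region of PAX2 starts 10314 bases inside the RefSeq gene. The 15 well-covered members under 10 kb kept between 3.47% and 20.99%, and the 4 between 10 and 30 kb between 4.66% and 13.3%, so of these 21 members the 2 that kept most were the 2 longest, as the plot of DRB level against length shows.

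**Figure D2:**
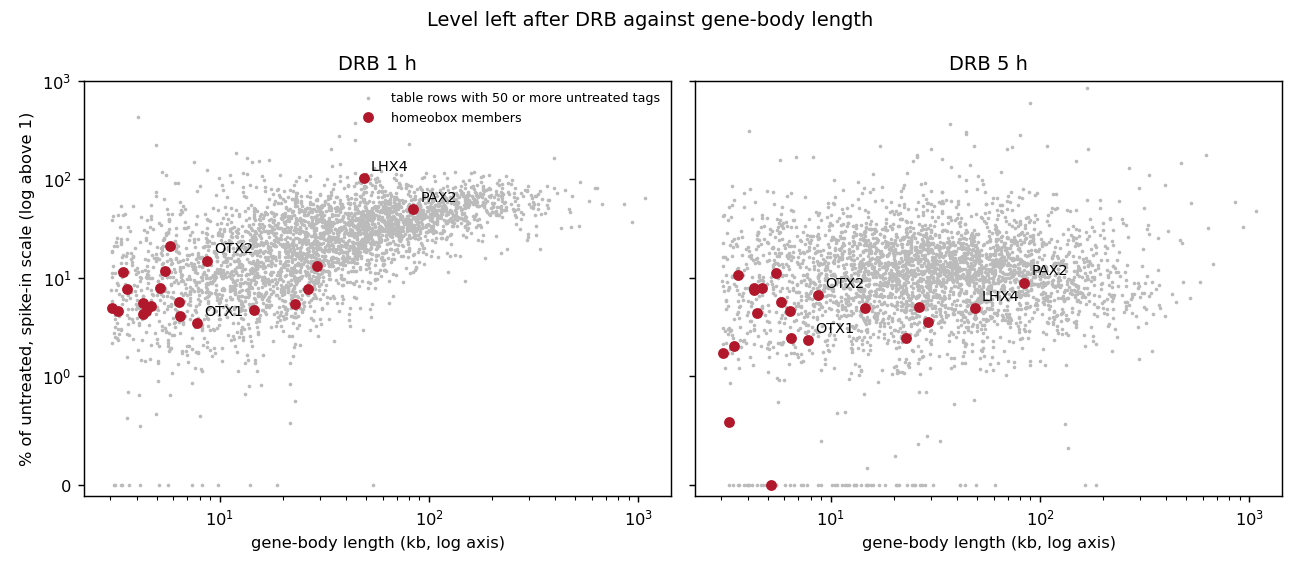
Mean level left after 1 h and 5 h of DRB as a percentage of untreated on the spike-in scale (logarithmic above 1), against gene-body length in kb (log axis), for the 21 members with at least 50 untreated tags (red) and the 3441 gene bodies with that many (grey). After 1 h LHX4 and PAX2 lie at 103% and 50.2%, and after 5 h at 4.89% and 8.90%.

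After 5 h of DRB the long genes had fallen as well. The well-covered members kept a median of 4.86% on the spike-in scale, from 0% (HOXB9) to 11.1% (DLX6), where all gene bodies kept 10.5% and those under 10 kb 8.496%. limma called 24 of 25 lower on that scale (75.7% of all genes). On the mRNA scale it called 21 lower (39.1% of all genes, 43.8% of those under 10 kb) and 1, PAX7, higher (25.6%), and edgeR called 15 lower (26.6%) and 1 higher (21.9%). PAX7 rested on 2 tags in each DRB library, and its spike-in change of 0.45 did not pass (adjusted p = 0.419). In the fit of labelled libraries PAX7 passed the filter only through these DRB libraries, so its call is not independent of the filter.

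Tags were few, and folds are therefore given as pooled ratios with 95% exact intervals, which cover counting error only since the reads carry no molecular identifiers. HOXD13 had 454.5 tags over both untreated libraries and 2 over both DRB libraries, 10.5-fold lower on the mRNA scale (2.90 to 87.3) and 59.9-fold on the spike-in scale (16.5 to 496). IRX3 had 606 and 3 tags, 9.37-fold lower on the mRNA scale (3.19 to 45.6), and LHX9 318 and 2 tags, 7.38-fold lower (2.03 to 61.2). HOXB9 had 153 tags in untreated cells and 0 after 5 h of DRB, at least 2.37-fold lower on the mRNA scale and at least 13.4-fold on the spike-in scale, with a floor of 3 tags over the group. HOXC11 and HOXD11 were at 0 tags after 1 h and after 5 h of DRB, from 23 and 23.5 untreated tags, and the 1 h bounds on the spike-in scale were at least 3.88-fold and at least 3.97-fold lower, with at least 1.30-fold and at least 1.32-fold on the mRNA scale. After 5 h the spike-in bounds were at least 2.02-fold and at least 2.06-fold, and on the mRNA scale the floor gave no bound above 1. limma counted both genes among its 21 lower after 5 h, and edgeR called neither (adjusted p = 0.24 and 0.231). The intervals of HOXD13, IRX3 and LHX9 all lie above 1 on both scales, and they are wide. Those of some other members included 1 on the mRNA scale after 5 h. Among these were LHX6 (0.976 to 29.9) and DLX4 (0.857 to 52.5), which limma had called lower. On the spike-in scale the intervals of LHX6 (5.54 to 170) and DLX4 (4.87 to 298) lay above 1.

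Between 1 h and 5 h of DRB the clearest change was in LHX4. It went from 114.5 and 206.5 tags to 1 and 6, a log2 change of -4.01 ± 0.61 on the mRNA scale (adjusted p = 0.000243 by limma and 1.2e-06 by edgeR) and -4.53 on the spike-in scale. limma called 5 members lower (26.1% of all genes) and 7 higher (32.6%), and edgeR called 2 lower (16.5%), LHX4 and PAX2, and 1 higher (20.6%), MSX1. The share of members called was thus below the share of all genes with both tools. PAX2 went from 23 and 61.5 tags to 4 and 3 (-1.56 ± 0.31). MSX1 had 5 and 5 tags after 1 h and 8 and 2 after 5 h, and its spike-in change of 0.53 did not pass (adjusted p = 0.284).

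**Figure D3:**
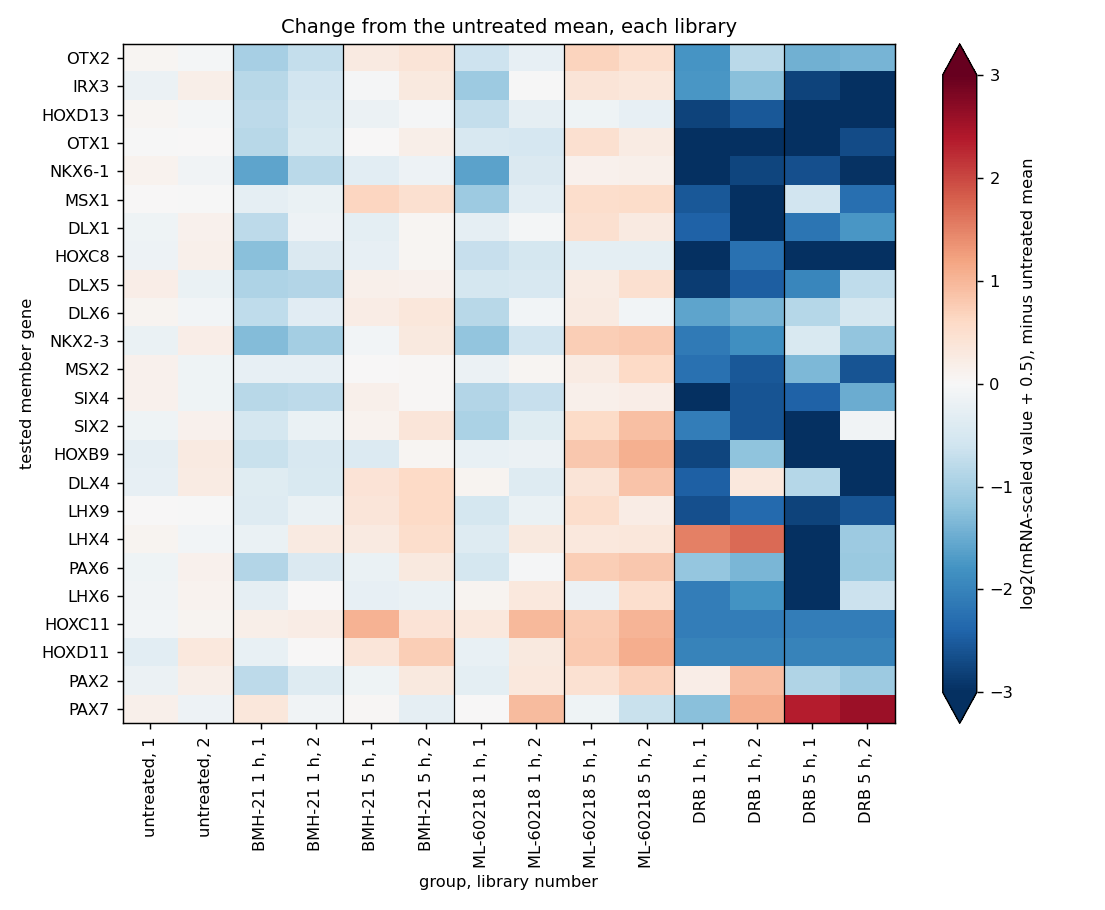
Change of 24 of the 25 tested members in each of the 14 labelled libraries, as log2(mRNA-scaled value + 0.5) minus the mean of the untreated libraries (colour, blue lower and red higher, saturated at -3 and 3), ordered by untreated level per kb. The DRB columns are blue for nearly all members, with LHX4 and PAX2 red after 1 h only, and PAX7 red after 5 h from 2 tags per library.

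After 1 h of BMH-21 the group's median level lay below that of all genes, and the edgeR calls of single members were lost without 1 library. On the spike-in scale the well-covered members stood at a median of 57.1% of untreated, where all gene bodies stood at 86.0% and those under 10 kb at 75.5%. The members' median log2 change on the mRNA scale was -0.57, against 0.01 over all genes and -0.13 under 10 kb, and 22 of 25 were below 0. Of all 5532 genes 2724 were below 0, and of the 1145 under 10 kb 699 were. limma called 0 members (and 0% of all 5532 genes), with 7 members at an unadjusted p under 0.05, and edgeR called 12 lower and none higher, beside 5.37% of all genes called lower and 11.97% of those under 10 kb. Without BMH-21 1 h replicate 1, the deepest library, every edgeR call of a member was lost, and so were nearly all calls of other genes. Without untreated replicate 2 edgeR called fewer members and also fewer of all genes. In such a fit the lone library of a group is assumed to vary like the other groups. On the spike-in scale some members were low in both BMH-21 libraries. Replicates 1 and 2 stood at 38.3% and 36.1% of untreated for NKX2-3, 43.3% and 55.6% for SIX4, and 53.3% and 52% for IRX3. The replicates lay further apart for NKX6-1, at 25.7% and 54%, and for LHX4, at 69.3% and 114%. On this scale limma called 0 members and 0 of all 5532 genes.

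NKX6-1 and NKX2-3 had the largest falls. NKX6-1 had mRNA-scaled values of 60.2 and 51.3 in untreated cells and 18.1 and 31.5 after 1 h of BMH-21, a log2 change of -1.20 ± 0.37 (adjusted p = 0.702 by limma and 0.00117 by edgeR). NKX2-3 went from 13.6 and 18.3 to 6.12 and 7.52 (-1.16 ± 0.34, adjusted p = 0.668 by limma and 0.000877 by edgeR). In both genes the treated libraries lay below the untreated ones without overlap, and the replicates of NKX6-1 differed from each other by more than those of NKX2-3. DLX5, a jaw, limb and bone factor, went from 39.6 and 29.5 to 17.7 and 18.5 (-0.90 ± 0.34, adjusted p = 0.773 and 0.0012).

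OTX2 went from 162 and 147 to 76.7 and 94.3, a change of -0.85 ± 0.26 (adjusted p = 0.668 by limma and 0.00348 by edgeR). HOXC8 (-0.84 ± 0.56), SIX4 (-0.81 ± 0.29), IRX3 (-0.71 ± 0.36), HOXD13 (-0.66 ± 0.24), PAX6 (-0.66 ± 0.88), OTX1 (-0.64 ± 0.20), PAX2 (-0.58 ± 0.31) and DLX6 (-0.55 ± 0.28) completed the edgeR calls. limma pools the spread over all groups, and it was widest under DRB: the median SD of log2 values was 0.482 after 5 h and 0.310 after 1 h of DRB, and 0.129 after 1 h of BMH-21. With the DRB libraries left out, limma called 8 of these members lower, among them OTX2 (-0.84 ± 0.14, adjusted p = 0.00734) and SIX4 (-0.80 ± 0.13, adjusted p = 0.00758). The share of all genes that limma called in that fit was not counted. With the same libraries left out, edgeR called 12 members lower, and 624 of 4876 genes in either direction. LHX4, with 0.04 ± 0.61, and LHX6, an interneuron factor, with -0.12 ± 0.89, overlapped the untreated libraries.

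After 5 h of BMH-21 the group stood near or above its untreated level. No member was called by limma (0% of all genes; no member had an unadjusted p under 0.05) or by edgeR (3.34% of all genes). The median log2 change was 0.11, with 18 of 25 above 0, against 0.01 over all genes, of which 2833 of 5532 were above 0. The 18 include HOXC11 and HOXD11, whose rise is not independent of the filter. The spike-in level of the well-covered members had a median of 126%, with 119% over all gene bodies. MSX1 was highest among them at 188% and 160%, and NKX6-1 stood at 89.9% and 112%.

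From 1 h to 5 h of BMH-21 most members rose. edgeR called 17 of 25 higher and none lower, beside 10.5% of all genes called higher and 16.2% of those under 10 kb, and the median log2 change was 0.73 against 0.00 over all genes. limma called none (0.0181% of all genes), with 10 members at an unadjusted p under 0.05, and on the spike-in scale 3 higher (1.23% of all genes): OTX2, OTX1 and NKX2-3. NKX2-3 went from 6.12 and 7.52 to 14.9 and 19.6 (1.27 ± 0.34, adjusted p = 0.199 by limma and 2.82e-05 by edgeR). OTX2 went from 76.7 and 94.3 to 184 and 200.3 (1.17 ± 0.26, adjusted p = 0.137 and 2.42e-05). The 5 h libraries of both genes lay above the 1 h libraries. Without BMH-21 1 h replicate 1, or without BMH-21 5 h replicate 2, edgeR called fewer members and also fewer of all genes.

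Other members that rose by edgeR included DLX5 (1.03 ± 0.34), NKX6-1 (0.97 ± 0.37), DLX4 (0.92 ± 0.98), SIX4 (0.90 ± 0.29), IRX3 (0.84 ± 0.36), DLX6 (0.82 ± 0.28), MSX1 (0.79 ± 0.46), LHX9 (0.78 ± 0.25) and HOXC8 (0.76 ± 0.56). MSX2 (0.25 ± 0.36), HOXB9 (0.38 ± 0.48), LHX4 (0.36 ± 0.61), DLX1 (0.34 ± 0.31) and LHX6 (-0.11 ± 0.89) were not called by either tool.

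After 1 h of ML-60218 no member was called by limma (0% of all genes; 4 members had an unadjusted p under 0.05) or by edgeR (0.0542% of all genes). The median log2 change was -0.39, with 20 of 25 below 0, against -0.02 over all genes and -0.08 under 10 kb. Of all 5532 genes 2952 were below 0, and of the 1145 under 10 kb 684 were. The spike-in level of the well-covered members had a median of 78.1%, where all gene bodies had 101%. NKX6-1 had the lowest single value with 30.3% in replicate 1 and 83.9% in replicate 2, so its replicates lay far apart. NKX2-3 stood at 49.9% and 59.8%, and SIX4 at 49.4% and 71.7%.

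After 5 h of ML-60218 the members lay above untreated on average. The median log2 change was 0.37, with 22 of 25 above 0, against -0.01 over all genes and 0.13 under 10 kb. Of all 5532 genes 2684 were above 0, and of the 1145 under 10 kb 680 were. The 22 include HOXC11 and HOXD11, whose rise over untreated is not independent of the filter. limma called 0 (0% of all genes), with 4 members at an unadjusted p under 0.05, and edgeR called 4 higher (4.18% of all genes): HOXB9, PAX6, NKX2-3 and OTX2. HOXB9 went from 8.25 and 12.4 to 18.2 and 21.7 on the mRNA scale (0.94 ± 0.48, adjusted p = 0.706 by limma and 0.0287 by edgeR), and PAX6 from 13.6 and 16.5 to 25.4 and 26.6 (0.77 ± 0.88, adjusted p = 0.97 and 0.0428). OTX2 went from 162 and 147 to 245 and 217 (0.58 ± 0.26, adjusted p = 0.629 and 0.0391) and NKX2-3 from 13.6 and 18.3 to 26.6 and 27.8. All 4 lost their edgeR call without either ML-60218 5 h library or without untreated replicate 1, and some kept it without untreated replicate 2. Fewer of all genes were called in each of these fits.

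HOXD13, HOXC8 and PAX7 did not share this direction. HOXD13 stood at 75.9% and 88.4% of untreated on the spike-in scale after 5 h of ML-60218, and HOXC8 at 79.6% and 72.5%, while HOXB9 stood at 193% and 175%. Genes of the same clusters differed, with HOXD11 at 234% and 188% from 15 tags in each library, and HOXC11 at 181% and 219% from 15.5 and 15. PAX7 stood at 62.2% and 44.1%, from 3 and 1 tags. On the mRNA scale HOXD13 changed by -0.19 ± 0.24 and HOXC8 by -0.29 ± 0.56, and neither passed either test. All BMH-21 and ML-60218 comparisons with untreated cells used the same 2 untreated libraries.

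From 1 h to 5 h of ML-60218 edgeR called 12 of 25 members higher and none lower, beside 8.03% of all genes called higher and 13.3% of those under 10 kb. limma called none (0.163% of all genes), with 11 members at an unadjusted p under 0.05. The median log2 change was 0.77 against 0.00 over all genes. NKX2-3 rose most, from 6.73 and 10.4 to 26.6 and 27.8 (1.64 ± 0.34, adjusted p = 0.0966 by limma and 0.000251 by edgeR). MSX1 went from 15.6 and 26.9 to 49.1 and 49.6 (1.25 ± 0.46), and OTX2 from 100.0 and 131 to 245 and 217 (1.01 ± 0.26). In all 3 genes both 5 h libraries lay above both 1 h libraries. Without ML-60218 1 h replicate 1, or without ML-60218 5 h replicate 2, edgeR called fewer members and also fewer of all genes.

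SIX2, a kidney progenitor factor (1.39 ± 1.01), NKX6-1 (1.16 ± 0.37), HOXB9 (1.13 ± 0.48), PAX6 (1.05 ± 0.88), SIX4 (0.96 ± 0.29), IRX3 (0.92 ± 0.36), DLX5 (0.87 ± 0.34), OTX1 (0.85 ± 0.20) and LHX9 (0.73 ± 0.25) were the other edgeR calls. HOXD13 (0.31 ± 0.24), HOXC8 (0.31 ± 0.56), LHX4 (0.38 ± 0.61) and LHX6 (-0.03 ± 0.89) were called by neither tool.

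The change from 1 h to 5 h under BMH-21 and that under ML-60218, which share no library, were compared directly. No member differed by limma or by edgeR, and none had an unadjusted p under 0.05 with either tool, while over all 5532 genes limma called 0 and edgeR 2. The difference, BMH-21 less ML-60218, had a median of -0.05 on the log2 scale and ran from -0.80 (SIX2) to 0.63 (PAX7). A test that misses its threshold does not show that the courses are alike.

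**Figure D4:**
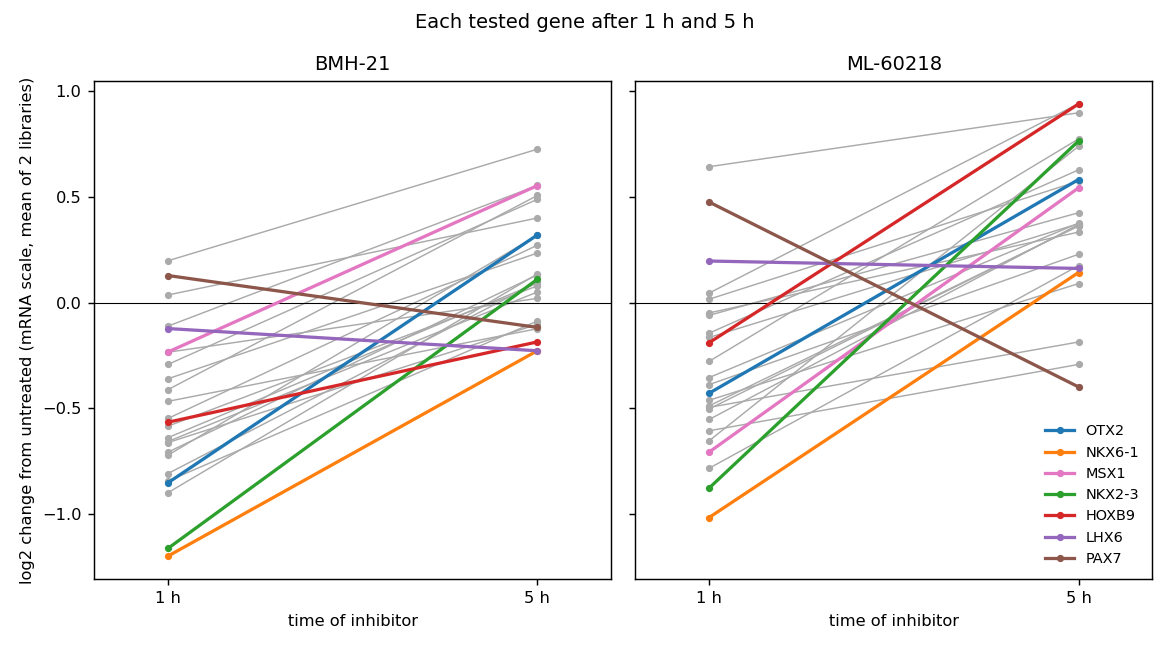
Log2 change from untreated on the mRNA scale (mean of 2 libraries) of each of the 25 tested members after 1 h and 5 h of BMH-21 (left) and ML-60218 (right), with lines joining the times of a gene and 7 genes in colour. Of the 25 lines, 23 rise in each panel, where 2761 of all 5532 genes rose under BMH-21 and 2736 under ML-60218. NKX6-1 starts lowest in both at -1.20 and -1.02, and both panels use the same untreated libraries.

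Across all 8 groups the leading gene of each family stood, by its mean, lower after 1 h than after 5 h of BMH-21 and of ML-60218, and far lower under DRB and without 4-SU. OTX2 stood on the spike-in scale at 48.5 ± 11.3% after 1 h and 147 ± 13.2% after 5 h of BMH-21, at 78.1 ± 22% and 140.1 ± 10.8% after ML-60218, at 14.9 ± 8.68% and 6.66 ± 0.460% after DRB, and at 0.709 ± 0.324% without 4-SU. IRX3 stood at 52.7 ± 0.934% and 129 ± 5.29% after BMH-21, at 72.6 ± 28.1% and 121 ± 11.8% after ML-60218, at 11.5 ± 1.78% and 2.02 ± 1.08% after DRB, and at 0.454 ± 0.0873% without 4-SU. The ML-60218 1 h values of both genes have SDs that reach the untreated level.

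HOXD13 stood at 54.9 ± 11.8% and 110 ± 9.91% after BMH-21, at 74.6 ± 23.4% and 82.2 ± 8.80% after ML-60218 and at 4.88 ± 1.23% and 1.70 ± 0.258% after DRB, with 0.763 ± 0.445% without 4-SU. HOXC8 stood at 48.3 ± 12.9% and 111 ± 5.08%, at 67.1 ± 3.11% and 76.0 ± 5.04%, and at 4.63 ± 2.09% and 0.582 ± 0.823% in the same order, with 0.536 ± 0.203% without 4-SU. Its DRB 5 h values, 1.16% and 0%, overlapped those without 4-SU. HOXB9 stood at 57.6 ± 9.67% and 103 ± 8.48%, at 91.1 ± 21.4% and 184 ± 12.6%, and at 7.81 ± 5.19% and 0% after DRB, with 1.41 ± 1.39% without 4-SU.

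NKX6-1 stood at 39.9 ± 20% and 101 ± 15.6% after BMH-21, at 57.1 ± 37.9% and 104 ± 21.7% after ML-60218 and at 4.09 ± 1.78% and 2.42 ± 0.190% after DRB. MSX1 stood at 73.5 ± 4.51% and 174 ± 19.5%, at 65.4 ± 26.8% and 137 ± 14.8%, and at 4.28 ± 1.04% and 7.77 ± 6.06%. DLX1 stood at 62.9 ± 12.4% and 108 ± 1.11%, at 91.8 ± 0.129% and 122 ± 16%, and at 4.56 ± 1.98% and 4.38 ± 0.402%. Without 4-SU these genes stood at 0.443 ± 0.142%, 0.958 ± 0.757% and 0.835 ± 0.776%, and both libraries of each lay below its DRB libraries.

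SIX4 stood at 49.5 ± 8.65% and 126 ± 4.52% after BMH-21, at 60.5 ± 15.8% and 107 ± 26.5% after ML-60218 and at 4.66 ± 1.98% and 4.86 ± 2.71% after DRB. LHX9 stood at 70.7 ± 9.20% and 166 ± 15.7%, at 81.04 ± 17% and 122 ± 5.32%, and at 5.42 ± 1.36% and 2.44 ± 0.258%. PAX6 stood at 54.1 ± 6.51% and 122 ± 9.82%, at 84.9 ± 12.3% and 162 ± 1.57%, and at 13.3 ± 2.46% and 3.54 ± 5.00%. In each of these genes the 5 h mean of BMH-21 and of ML-60218 was above the 1 h mean, and the DRB means were the lowest of the labelled groups. Without 4-SU SIX4 stood at 0.946 ± 0.913%, LHX9 at 1.06 ± 0.158% and PAX6 at 1.45 ± 1.13%. The DRB 5 h values of PAX6, 0% and 7.08%, overlapped its values without 4-SU, 0.658% and 2.25%. LHX4 stood at 103 ± 25.9% after 1 h of DRB, within the spread of its ML-60218 1 h level of 105 ± 46.6%, and at 4.89 ± 5.34% after 5 h.

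**Figure D5:**
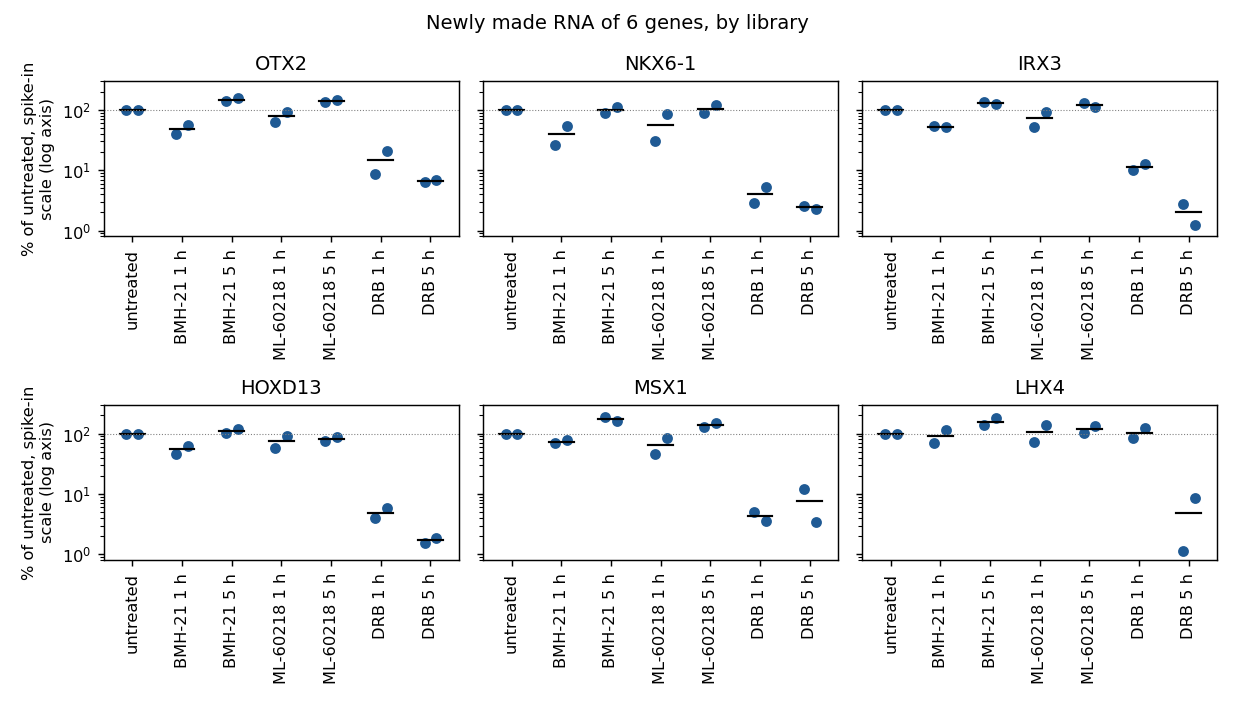
Level of OTX2, NKX6-1, IRX3, HOXD13, MSX1 and LHX4 in each library as a percentage of the equally numbered untreated library on the spike-in scale (log axis; points are libraries, bars their mean, dotted line 100%). BMH-21 1 h points lie below 100% for the first 5 genes, and LHX4 alone stays near 100% after 1 h of DRB, at 84.7% and 121%.

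Related genes outside the group were counted from lists of homeobox genes of other families, TALE homeodomain genes, Polycomb genes and genes of retinoic acid signalling, which activates HOX clusters. Some TALE proteins, but not all, bind DNA together with HOX proteins. Beside these counts, edgeR called 5.37% of all genes lower after 1 h of BMH-21, 10.5% higher from 1 h to 5 h of BMH-21 and 8.03% higher from 1 h to 5 h of ML-60218. Of 43 other homeobox genes 24 were tested, and edgeR called 4 lower after 1 h of BMH-21 and 9 higher from 1 h to 5 h, and 4 higher from 1 h to 5 h of ML-60218. HHEX, a liver and blood factor, changed by -0.76 ± 0.43 after 1 h of BMH-21 (adjusted p = 0.968 by limma and 0.0025 by edgeR). After 1 h of DRB limma called 13 of the 24 lower and 1 higher, beside 28.6% of all genes called lower and 848 of 5532 called higher. Their median change after 1 h of BMH-21 was -0.33, against -0.57 in the 25 members. It was -0.56 in the 4 tested retinoic acid genes, -0.23 in the 4 TALE genes and -0.11 in the 12 Polycomb genes.

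All 12 Polycomb genes were tested, and edgeR called 4 lower after 1 h of BMH-21, 4 higher from 1 h to 5 h of BMH-21 and 3 higher from 1 h to 5 h of ML-60218. CBX2, a subunit of the complex that binds methylated histone H3, changed by -0.80 ± 0.28 after 1 h of BMH-21 (adjusted p = 0.712 by limma and 0.00198 by edgeR) and by 0.79 ± 0.28 from 1 h to 5 h (adjusted p = 0.347 and 0.000413). limma called 9 of the 12 lower after 1 h of DRB (28.6% of all genes) and 11 after 5 h (39.1%). Of the 4 tested retinoic acid genes edgeR called 3 lower after 1 h of BMH-21, 2 higher from 1 h to 5 h of BMH-21 and 3 higher from 1 h to 5 h of ML-60218. CYP26B1, an enzyme that degrades retinoic acid, changed by -0.50 ± 0.22, 0.78 ± 0.22 and 0.87 ± 0.22 in these comparisons (adjusted p = 0.0201, 0.000129 and 0.000561 by edgeR, and 0.86, 0.221 and 0.135 by limma). Of 4 TALE genes edgeR called none lower after 1 h of BMH-21 and 1 higher from 1 h to 5 h of each inhibitor. These were MEIS3 under BMH-21 (0.76 ± 0.41, adjusted p = 0.67 by limma and 0.0194 by edgeR) and TGIF1 under ML-60218 (0.75 ± 0.30, adjusted p = 0.303 by limma and 0.00646 by edgeR).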

How the data were processed

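RNA was counted in 16 HAP1 libraries. Per the file headers, the authors counted tags over hg38 gene bodies above 3 kb in HOMER, with no strand setting. STAR 2.7.7a, HOMER, FastQC 0.11.9 and Trim Galore 0.6.5 are named per the submitters' processing notes. The deposited signal columns, headed as raw counts, hold tags that HOMER scaled to 10000000 per library. Multiplied back, 91787 of 91787 values under 200 tags were multiples of 0.5 tag within 0.005. The deposited ratio columns hold each spike-in scaled value over the equally numbered untreated library, and gave the spike-in factors.

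Since the values are not whole counts, the main test was limma on log2(value + 0.5) after division by the gene-body sum and edgeR's TMM factor (the mRNA scale), with a filter of 10 tags (filterByExpr), 14 labelled libraries (16 for the comparison without 4-SU) and Benjamini-Hochberg adjustment over all genes tested, at 0.05. An alternative was edgeR's quasi-likelihood test on the tags recovered in this way. Members were named where they passed limma, or edgeR where limma called no member, with a mean of at least 50 tags and no overlap between groups, the 12 largest per direction. For DRB against untreated the mean was that of the untreated group, and between the DRB times the higher of the 2 group means. After 5 h of DRB only some of the members that met this rule are given. The leading gene of each family per kb, and NKX2-3 and NKX6-1, were named in addition. LHX4, PAX2, PAX7 and other members given outside this rule were singled out after their values were seen. The members and lists were chosen with earlier results of these data known. Of each other list up to 4 genes with the smallest p were open to naming. The tests were tested on simulated data. Versions were Python 3.11.15, DESeq2 1.42.0, edgeR 4.0.16 and limma 3.58.1 in R 4.3.3. Library totals ran from 14083584 to 93919776.5 tags, and 2 libraries per group limit the precision. Intervals are 95% exact and bounds use a floor of 3 tags. Values of a few genes are not reported here. The rRNA and tRNA tables were not used here.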

Additional observations from a re-analysis of the deposited data

How the results depend on the processing

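Members called by limma were recounted under other settings. edgeR called 12 lower after 1 h and 17 higher from 1 h to 5 h of BMH-21, 4 higher after 5 h and 12 higher from 1 h to 5 h of ML-60218, and 3 from 1 h to 5 h of DRB. With only the 4 libraries compared in the fit, limma called 9 after 1 h and 1 after 5 h of BMH-21, 17 between these times, 8 after 5 h of ML-60218, 13 from 1 h to 5 h of ML-60218, 10 after 5 h of DRB and 2 from 1 h to 5 h of DRB. Without the DRB libraries, a setting chosen after seeing the data, it called 8 after 1 h of BMH-21, 14 between the BMH-21 times, 4 after 5 h of ML-60218 and 14 between the ML-60218 times. The share of all genes called was not counted for this setting or for the fits of 4 libraries. On the spike-in scale limma called 24 against no 4-SU and 3 between the BMH-21 times. Leaving out each library in turn gave 8 to 13 against no 4-SU, 15 to 17 after 1 h and 15 to 22 after 5 h of DRB, 8 to 14 between the DRB times, and 0 to 0 in the other comparisons. DESeq2 size factors, a pseudocount of 2 and no filter kept every count within 1.5 times. No change named by the rule reversed. Of the genes singled out after their values were seen, PAX2 after 1 h of DRB had 0.56 on the mRNA scale and -0.99 on the spike-in scale, and PAX7 against no 4-SU had -2.95 and 0.75. Same-numbered libraries deviated together by over 0.1 in only 7 of 21 pairs of groups (median correlation 0.0469). The main fits therefore did not take the numbers as pairs. The spike-in factors and percentages do use the numbers, since each is set against the equally numbered untreated library. Both untreated libraries are thus at 100% by construction. With the replicate block limma called 18 after 1 h of DRB, instead of 17, and no other count changed. The 2 libraries per group and the few DRB tags limit all of these values.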
